A study of Mus musculus with 6 samples.

Results

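The RNAs described here are the H/ACA box small nucleolar RNAs and the Cajal body RNAs of mouse spleen. They were chosen by symbol, as the genes whose probe set carries 1 symbol made of Snora or Scarna followed by a digit, and 31 of 22180 genes on the array met the rule. Of these, 26 were Snora and 5 were Scarna genes, and the rule uses the symbol alone, although this set of RNAs was taken up with earlier results of these data known. The spleens came from DX2 mice, of genotype CAG-rtTA; TRE DX2/+, and from control littermates, of genotype 0; TRE DX2 /+ (without rtTA), with 3 spleens and 3 Affymetrix arrays per group. DX2 is a shortened splice form of AIMP2, a scaffold of the multi-tRNA synthetase complex. Its transgene responds to the doxycycline-dependent activator rtTA, which the broadly active CAG promoter drives. Both groups carried the responsive transgene and received doxycycline in their pellets, at 6.25 mg/kg, from week 8 of life until the age of 1 year. Since only DX2 mice carried rtTA, what DX2 does and what rtTA does cannot be told apart here. The comparison addresses which of these RNAs differed between DX2 and control spleens. The labels call the 3 samples of a group biological replicates.

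An H/ACA RNA folds into a pair of hairpins, binds the proteins dyskerin, NHP2, NOP10 and GAR1, and pairs with a target RNA so that dyskerin turns a chosen uridine into pseudouridine. Those of the nucleolus act on ribosomal RNA, and those of Cajal bodies act on the small nuclear RNAs of the spliceosome. In mammals most are cut out of the introns of host genes, many of which encode ribosomal proteins or are non-coding genes kept for the small RNAs they carry, and many hosts begin transcription in a run of pyrimidines. The symbols do not follow the box class in every case: by their human counterparts Scarna2 and Scarna17 are C/D box RNAs, which guide methylation, and Scarna6 and Scarna10 join both box types in 1 molecule. A probe that matches such an RNA also matches the intron around it, so the mature RNA and unspliced host RNA cannot be told apart here. The labels name the Affymetrix IVT express kit, which primes from poly(A) tails, whereas mature H/ACA RNAs carry none, so how these RNAs came to be labelled is not known from the sources used here.

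By the RefSeq gene table of assembly GRCm38.p6, in which all 31 were found, 30 of the RNAs lie within the span of a larger gene. The table gives no strand, so a host is called from its span alone. Annotated lengths ran from 56 to 248 nucleotides. The results below turn on 4 hosts, and 1 annotated start region of each is shown, since RNAs cut from 1 transcript share its start. Zbed3 has 3 listed starts, and which of them makes the transcript around Snora47 is not known. Each is the RefSeq window from 120 bases before to 30 bases after the annotated start, in build GRCm38.p6, read 5′ to 3′ on the gene's strand. Capitals mark the 30 bases from the start on.
Snhg12, host of Snora44, Snora16a and Snora61, plus strand, chr4:132308558-132308707: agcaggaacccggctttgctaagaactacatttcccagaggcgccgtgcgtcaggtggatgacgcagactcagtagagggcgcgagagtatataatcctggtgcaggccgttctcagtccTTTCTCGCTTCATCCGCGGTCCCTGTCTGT
Srcap, host of Snora30, plus strand, chr7:127511863-127512012: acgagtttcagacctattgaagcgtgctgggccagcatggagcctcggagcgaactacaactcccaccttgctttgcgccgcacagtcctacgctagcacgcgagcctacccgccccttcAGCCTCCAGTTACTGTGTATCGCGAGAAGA
Zbed3, host of Snora47, plus strand, the most upstream of 3 listed starts, chr13:95323485-95323634: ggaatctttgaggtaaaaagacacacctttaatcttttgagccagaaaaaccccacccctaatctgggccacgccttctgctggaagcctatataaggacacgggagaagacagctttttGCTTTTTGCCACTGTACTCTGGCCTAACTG
Kansl2, host of Snora34 and Snora2b, minus strand, chr15:98534240-98534389: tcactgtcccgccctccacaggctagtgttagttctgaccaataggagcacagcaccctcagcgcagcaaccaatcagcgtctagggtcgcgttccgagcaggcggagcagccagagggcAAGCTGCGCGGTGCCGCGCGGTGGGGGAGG

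A pair of short motifs was searched on both strands of these windows, chosen after the sequences had been read. The letters TATATAA, which resemble a TATA box, were present in the windows of Snhg12 and Zbed3 and in 1.77% of all 32851 RefSeq windows of the same length. In Snhg12 they began 32 bases before the start (position -32), and in Zbed3 at position -31. The pyrimidine run CTTTC began at position -1 in Snhg12, so that it crosses the start, and was in 33.0% of all windows. Neither run of letters was in the Srcap or Kansl2 window, and in Snhg12 the 2 matches do not overlap.

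Most arrays were alike across genes, and some features of the spleens moved with the groups. Pearson correlations across all genes, which are not independent replicates, were 0.967 to 0.983 between DX2 arrays, 0.986 to 0.988 between control arrays and 0.963 to 0.981 between the groups. The median of all genes lay between 5.42 and 5.46 (log2) on every array, whereas the median of the 16010 probe sets without a gene symbol was 4.63 to 4.74 in DX2 and 4.85 to 4.88 in control spleens. All 7 measured B cell markers were lower in every DX2 spleen than in every control spleen, and their mean log2 value was 8.29 to 9.01 in DX2 and 10.07 to 10.49 in control. The mean of 6 erythroid markers was 9.88, 7.68 and 9.67 in DX2 1, 2 and 3, against 6.36, 8.33 and 8.27 in controls 1, 2 and 3. Of 8 red pulp macrophage markers 6 were higher in every DX2 than in every control spleen, and 5 markers of the neighbouring pancreas averaged 4.44 to 4.67 in DX2 and 4.54 to 4.59 in control. Xist, the RNA of the inactive X chromosome, read 4.02 to 4.29 in DX2 spleens, against 10.9, 10.5 and 3.89 in controls 1, 2 and 3, and Y-linked transcripts showed the reverse. By these transcripts all DX2 spleens and control 3 were male, and controls 1 and 2 were female. A fit with a sex term therefore sets the DX2 spleens against control 3 alone. The part of cell makeup and of sex in the differences below was not tested, and fewer cells of a type cannot be told apart from less RNA per cell.

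DX2 spleens had less signal for most of these RNAs than control spleens, and 1 of the 31, Snora44, fell past the threshold. The threshold was a Benjamini-Hochberg adjusted p of 0.05 in limma's test over all genes, which 0.316% of all genes passed in either direction and 0.28% passed as lower. None was called higher, where 0.0361% of all genes were. Of the 31, 25 were lower and 6 higher in DX2. Their median difference was -0.21 on the log2 scale, with a range of -1.45 to 0.42, while the median over all genes was 0.01. That count depends on the scaling: with each array centred on its probe sets without a symbol, which moved the median of all genes to 0.21, 16 of 31 were lower and their median was -0.01. For 9 of the 31 every DX2 value lay below every control value, against 11.2% of all genes, and for 1 every DX2 value lay above, against 10.7%. At an unadjusted p of 0.05, 7 were lower and 1 higher, where 7.82% and 8.13% of all genes were.

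**Figure D1:**
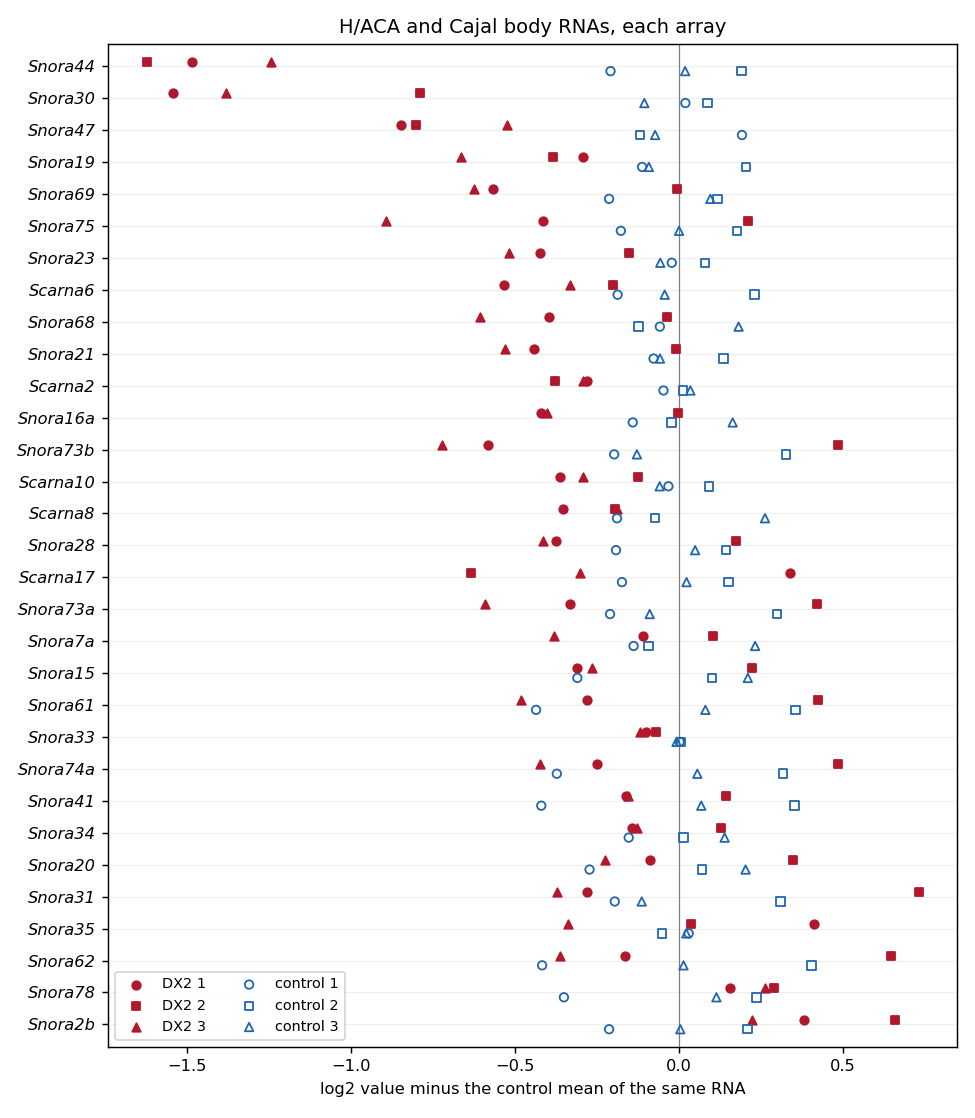
Each of the 31 RNAs on each array, as its log2 value minus the mean of the 3 control arrays for the same RNA (horizontal axis); filled red symbols are DX2 spleens, open blue symbols control spleens, and the symbol shape gives the replicate number. Snora44, Snora30 and Snora47 lie furthest left, Snora2b is the RNA whose 3 DX2 values all lie above control, and the DX2 2 square is the rightmost DX2 symbol for 24 of the 31.

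Snora44, whose human counterpart guides the small-subunit ribosomal RNA, read 8.58, 8.45 and 8.83 (log2) in DX2 1, 2 and 3, against 9.86, 10.26 and 10.09 in controls 1, 2 and 3. The highest DX2 spleen was thus lower than the lowest control spleen by more than the spread within either group. Its means were 8.62 ± 0.19 in DX2 and 10.07 ± 0.20 in control (SD, n = 3 each), a difference of -1.45 (SE 0.15), or 2.73-fold lower in DX2. The 95% interval ran from -1.80 to -1.10, and limma gave an adjusted p of 0.0329. The difference lay between -1.55 and -1.35 with any 1 array left out, and the call was kept without DX2 2 (adjusted p = 0.0341, limma) and lost without each of the 5 other arrays (adjusted p 0.0540 to 0.170). A sex term gave -1.47, which is the difference of the DX2 spleens from control 3, the only male control.

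Snora30 and Snora47 had the next largest differences without passing. Snora30 read 8.13, 8.89 and 8.29 in DX2 1, 2 and 3, against 9.69, 9.76 and 9.57 in controls. Control spleens were close together and DX2 2 lay nearest to them. The difference was -1.24 (SE 0.20) with an adjusted p of 0.0638 (limma), and without DX2 2 it was -1.46 and passed (adjusted p = 0.0341). Snora47 read 7.89, 7.93 and 8.21 in DX2 spleens, against 8.93, 8.61 and 8.66 in control spleens, with no overlap. Its difference was -0.72 (SE 0.14, adjusted p = 0.0834, limma).

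Among the 5 Cajal body RNAs the shifts were smaller, all 5 were lower in DX2 and none passed. Scarna2, which guides methylation of the U2 small nuclear RNA in human cells and is the RNA with no host span here, had the least spread of them. It read 10.10, 10.003 and 10.09 in DX2 spleens, against 10.33, 10.39 and 10.42 in control spleens, a difference of -0.32 (SE 0.10, adjusted p = 0.190, limma). Scarna6 read 8.19, 8.52 and 8.39 in DX2, against 8.54, 8.96 and 8.68 in control. Its groups did not overlap, although DX2 2 and control 1 nearly touched, and the difference was -0.36 (SE 0.15). Scarna10, the human counterpart of which guides both kinds of modification in the U5 small nuclear RNA, read 10.63, 10.87 and 10.70 in DX2, against 10.96, 11.09 and 10.94 in control. These groups too did not overlap, at -0.26 (SE 0.11). Scarna8, whose human counterpart guides pseudouridylation of U2, read 5.45, 5.61 and 5.62 in DX2, against 5.62, 5.73 and 6.07 in control. The groups overlapped at -0.25 (SE 0.14), and the difference was -0.11 without control 3 and -0.51 with the sex term. Scarna17 had 2 probe sets that disagreed: the brighter one, used here, read 9.85, 8.87 and 9.21 in DX2, against 9.33, 9.66 and 9.53 in control. Its other probe set read 8.86, 8.25 and 8.55 in DX2, against 8.88, 9.27 and 9.08 in control, a difference of -0.52 with no overlap.

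A further 3 RNAs had all DX2 values below all control values. Snora23, which lies in the importin gene Ipo7, read 10.78, 11.06 and 10.69 in DX2, against 11.19, 11.29 and 11.15 in control. The difference was -0.36 (SE 0.13), with an adjusted p of 0.229 (limma). Snora19, in the initiation factor gene Eif3a, read 5.22, 5.13 and 4.85 in DX2, against 5.40, 5.72 and 5.42 in control, a difference of -0.45 (SE 0.15). Its 2 probe sets hold identical values on every array and count as 1 measurement. Snora33, in the ribosomal protein gene Rps12, read 12.56, 12.59 and 12.54 in DX2, against 12.66, 12.67 and 12.65 in control. That separation was narrow, at -0.10 (SE 0.09), and it turned to 0.10 with arrays centred on the probe sets without a symbol. The other, dimmer probe set of Snora33 overlapped between the groups. It read 7.54, 7.55 and 7.39 in DX2, against 7.53, 8.18 and 7.47 in control.

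Snora2b was the 1 RNA with every DX2 value above every control value. It read 6.41, 6.69 and 6.25 in DX2, against 5.82, 6.24 and 6.03 in control. The gap between DX2 3 and control 2 was small beside the spread within the groups. The difference was 0.42 (SE 0.16), with a 95% interval of 0.05 to 0.79 and an adjusted p of 0.259 (limma).

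The other 21 RNAs, among them Scarna8 and Scarna17 above, overlapped between the groups, with adjusted p between 0.359 and 0.984 (limma). They include the long U17 RNAs Snora73a and Snora73b, which in mammals and yeast serve cleavage of the ribosomal RNA precursor rather than pseudouridylation. Snora73a read 8.92, 9.68 and 8.67 in DX2, against 9.05, 9.56 and 9.17 in control, and Snora73b read 9.42, 10.49 and 9.28 in DX2, against 9.80, 10.33 and 9.87 in control. DX2 2 was the highest and DX2 3 the lowest array for both, so the differences of -0.17 (SE 0.27) and -0.27 (SE 0.32) were within the spread of the DX2 group. The pair are near-identical copies whose signals the probes may share. Snora74a, also called U19, which guides the large-subunit ribosomal RNA in human cells, differed by -0.06 (SE 0.27). Snora62, the E2 RNA carried by the ribosomal protein gene Rpsa, differed by 0.04 (SE 0.30).

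Of the overlapping RNAs in genes of the translation machinery, Snora69 in Rpl39 differed by -0.40 (SE 0.19) and Snora21 in Rpl23 by -0.33 (SE 0.16). For both, DX2 1 and DX2 3 were below all controls and DX2 2 lay within the control range. Snora7a in Rpl32 differed by -0.13 (SE 0.16), Snora28 in the initiation factor gene Eif5 by -0.21 (SE 0.18) and Snora41 in the elongation factor gene Eef1b2 by -0.06 (SE 0.20). Snora75, in the gene of the nucleolar protein nucleolin (Ncl), had the widest DX2 spread of those with a difference beyond -0.30, reading 7.75, 8.37 and 7.27 in DX2, against 7.99, 8.34 and 8.16 in control. Snora15 and Snora20, in the chaperonin genes Cct6a and Tcp1, differed by -0.12 (SE 0.19) and 0.01 (SE 0.19). Snora68 differed by -0.35 (SE 0.17), Snora31 in Tpt1 by 0.03 (SE 0.30), and Snora78, whose position lies within both Rps2 and Snhg9, by 0.24 (SE 0.16). Snora35, known as a brain RNA carried by the serotonin receptor gene Htr2c, was the dimmest of the 31 and read 5.29, 4.92 and 4.55 in DX2, against 4.91, 4.83 and 4.91 in control.

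Signal height was high for most of the RNAs, as a property of their probe sets and not a measure of molecules. Mean log2 values ran from 4.90 for Snora35 to 12.6 for Snora33, and 29 of 31 lay above the median gene and 21 above the percentile of 90. Snora34 and Snora21 were the next brightest after Snora33. Snora34 read 11.30, 11.57 and 11.32 in DX2, against 11.29, 11.46 and 11.58 in control, and Snora21 read 10.99, 11.43 and 10.91 in DX2, against 11.36, 11.57 and 11.38 in control. Both overlapped between the groups, and DX2 2 was the highest DX2 spleen for both. At the dim end, Scarna8 and Snora19 were the next dimmest after Snora35. The 3 RNAs with the largest differences stood between the percentiles of 92.6 and 97.7. They were thus bright probe sets, whereas the values of Snora35, Snora19 and Scarna8 were near the median gene, where the floor of detection is unknown.

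Within a group the same spleens tended to be high or low for most of the RNAs. DX2 2 was the highest DX2 array for 24 of 31 RNAs and for 40.2% of all genes, and DX2 3 the lowest for 18 of 31 and for 28.5% of all genes. In the control group control 1 was the lowest array for 24 of 31 and for 33.3% of all genes, and control 2 the highest for 21 of 31 and for 33.8%. The median over the 31 was 8.77, 8.98 and 8.67 in DX2 1, 2 and 3, against 9.05, 9.56 and 9.17 in controls 1, 2 and 3. The median SD within a group was 0.28 in DX2 and 0.18 in control for these RNAs, and 0.17 in DX2 and 0.14 in control for all genes. With 1 array left out the median difference ran from -0.34 without DX2 2, when 27 of 31 were lower, to -0.10 without DX2 3, when 22 were. It was -0.13 without control 2, again with 22 lower. The count of RNAs with every DX2 value below control was 18 of 31 without DX2 2, where 18.1% of all genes met this. Without each other array it was 9 to 11 of 31, where 14.8% to 16.2% of all genes met it.

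C/D box RNAs, the other large class of small nucleolar RNA, were mostly lower as well. Of 47 measured Snord genes 42 had a lower mean in DX2 and the median over them was -0.22. Every DX2 value lay below every control value for 12 of the 47, against 11.2% of all genes. Of the 47, 1 was called lower, Snord85, where 0.28% of all genes were. It read 4.28, 4.01 and 4.24 in DX2, against 5.16, 5.01 and 5.10 in control. The difference was -0.92 (SE 0.12, adjusted p = 0.0387, limma). Its probe set was dim, at the percentile of 33.4, where the floor of detection is unknown. The count of called Snord genes was 2 without DX2 2, where 370 of all 22180 genes were called. It was 0 without each of the 5 other arrays, where 1 to 8 of all genes were. Snord91a and Snord17 differed by -0.84 and -0.78 without passing, and Snord91a was dim as well, at the percentile of 24.8. DX2 2 was the highest DX2 array for 39 of the 47 and control 1 the lowest control for 40. No difference between the 2 classes was tested.

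Host genes lay on both sides of control. Of 23 measured hosts 10 were lower and 13 higher in DX2, and their median was 0.03. None of the hosts passed the adjusted threshold in limma's test. At an unadjusted p of 0.05, 1 was lower and 1 higher, where 7.82% and 8.13% of all genes were. Of 27 RNAs with a measured host, 12 were lower while the host gene was higher, Snora69 in Rpl39 among them. With most of the RNAs lower and 13 of the 23 hosts higher, this count alone does not show that RNA and host moved apart. Probe sets of most hosts are numbered next to those of the RNAs inside them. Those of Kansl2, Rpsa, Rpl39 and Tpt1 are numbered far apart from them, so whether they read the gene around the RNA is not known. The 7 RNAs within non-coding hosts alone were all lower, with a median of -0.20. That median is the value of Scarna17 by its brighter probe set, where the other gave -0.52. Snora44, Snora16a and Snora61 share the host Snhg12, and Snora73a and Snora73b share Snhg3, so the 7 do not stand for 7 separate hosts. Of 6 within ribosomal protein genes alone 5 were lower (median -0.23), and of 16 within other coding genes 12 were lower (median -0.23).

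**Figure D2:**
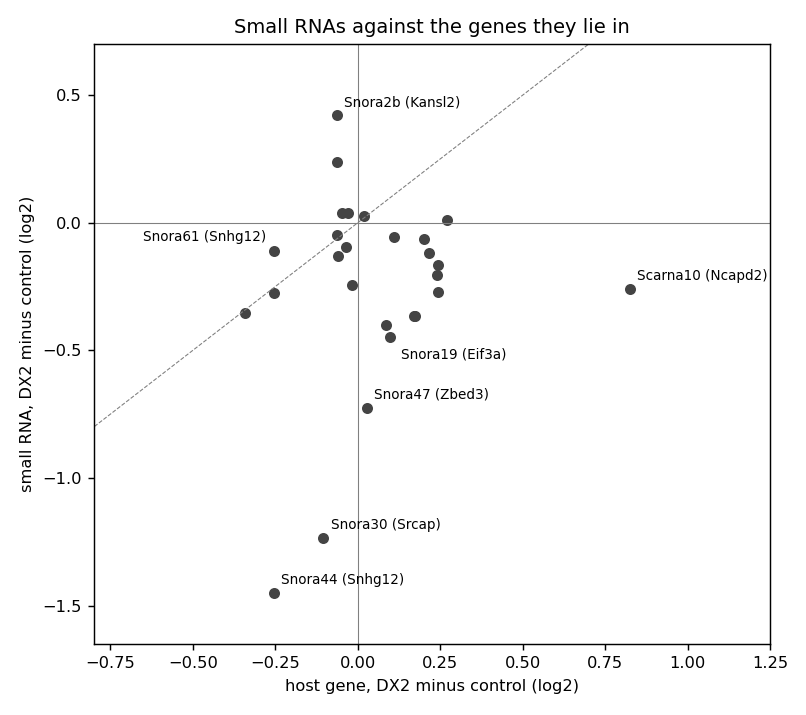
The DX2 minus control difference of each small RNA (vertical axis, log2) against that of the gene whose span holds it (horizontal axis, log2), for 27 pairs with a measured host; the dashed line marks equal differences. Snora44, Snora30 and Snora47 lie far below the line, with hosts at -0.25 for Snora44 (Snhg12), -0.10 for Snora30 (Srcap) and 0.03 for Snora47 (Zbed3). Scarna10 is lower than control where its host Ncapd2 is higher. Whether the probe sets of Kansl2, Rpsa, Rpl39 and Tpt1 read the gene around the RNA is not known.

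Snora44 differed by more than its own host and the other RNAs of that host did. Snhg12 read 5.71, 5.91 and 5.80 in DX2, against 6.13, 6.09 and 5.96 in control, a difference of -0.25 (SE 0.11, adjusted p = 0.316, limma). Its groups did not overlap either. The Snhg12 probe set was much dimmer, at the percentile of 58.5 against 97.7 for Snora44, and the floor of detection is unknown. Snora16a differed by -0.28 (SE 0.15) and Snora61 by -0.11 (SE 0.28), with overlap in both. All 3 RNAs follow the 1 start region shown for Snhg12. Within each array, the log2 gap of Snora44 to Snora16a was -2.22, -2.77 and -2.00 in DX2 spleens, against -1.23, -0.94 and -1.30 in control spleens. The gap to Snora61 was 0.23, -0.61 and 0.67 in DX2, against 1.66, 1.27 and 1.37 in control, and that to Snhg12 was 2.87, 2.53 and 3.03 in DX2, against 3.73, 4.17 and 4.12 in control. The groups did not overlap in any of the 3 gaps, which were looked at because Snora44 had been called. In an exact two-sided permutation test each gave p = 0.1, the smallest that 3 arrays against 3 allow, so this test could not pass the threshold. Over 32 such pairs, 27 of an RNA with its host and 5 of RNAs with the same host, the Benjamini-Hochberg value was 0.291 for these.

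**Figure D3:**
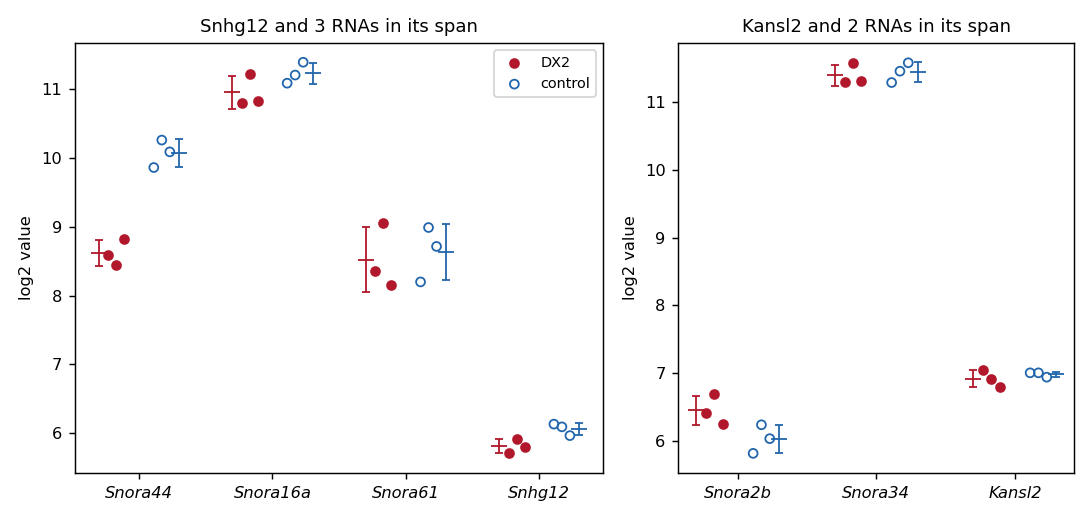
Log2 values (vertical axis) of Snora44, Snora16a, Snora61 and their host Snhg12 in the left panel, and of Snora2b, Snora34 and their host Kansl2 in the right panel; filled red points are DX2 spleens, open blue points control spleens, and bars give mean and SD (n = 3 each). Snora44 is separated by more than 1 log2 unit between the groups, while Snora16a and Snora61 overlap. Whether the Kansl2 probe set reads the gene around Snora2b and Snora34 is not known.

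The host of Snora30, the chromatin remodelling gene Srcap, differed by -0.10 (SE 0.14), and that of Snora47, the zinc finger gene Zbed3, by 0.03 (SE 0.13). Ncapd2, a condensin subunit needed in mitosis, differed by 0.83 (SE 0.25, adjusted p = 0.174, limma), where Scarna10 inside it differed by -0.26. All 5 measured cell cycle markers were likewise higher in every DX2 than in every control array, and their part in the Ncapd2 value was not tested. Atg16l1, an autophagy gene, moved by about the same as Scarna6 inside it, at -0.34 (SE 0.10) beside -0.36. In the span of Kansl2, which encodes a subunit of a histone acetyltransferase complex, Snora2b differed by 0.42 and Snora34 by -0.05 (SE 0.13). The Kansl2 probe set differed by -0.06 (SE 0.11), but whether it reads the gene around these RNAs is not known. The log2 gap of Snora34 to Snora2b was 4.89, 4.89 and 5.06 in DX2, against 5.48, 5.22 and 5.55 in control, with an exact two-sided permutation p of 0.1.

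Genes for the core and assembly proteins of H/ACA RNAs differed in the other direction at the RNA level, without passing. All 6 measured genes of the core and of its assembly were higher in DX2, with a median of 0.32. For 3 of the 6 every DX2 value lay above every control value, against 10.7% of all genes. The 5 measured cell cycle markers were also higher in every DX2 array, with a median of 1.07, and their part in these values was not tested. Dkc1, the pseudouridine synthase dyskerin, read 8.18, 8.19 and 8.13 in DX2, against 7.61, 7.94 and 7.90 in control, a difference of 0.35 (SE 0.12, adjusted p = 0.230, limma). Nhp2 read 7.45, 7.70 and 7.43 in DX2, against 6.94, 7.27 and 7.16 in control, at 0.41 (SE 0.13). Gar1 read 6.93, 6.70 and 6.81 in DX2, against 6.41, 6.63 and 6.27 in control, at 0.38 (SE 0.13). In each of the 3 the lowest DX2 spleen lay above the highest control spleen. Nop10, the smallest core protein, differed by 0.04 (SE 0.13), and the assembly factors Naf1 and Shq1 by 0.30 (SE 0.18) and 0.25 (SE 0.15).

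**Figure D4:**
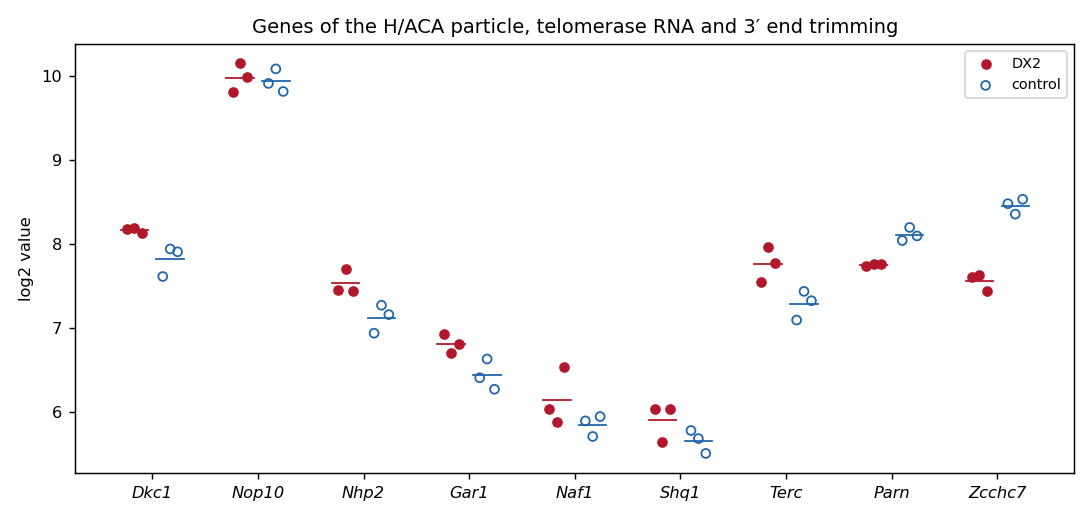
Log2 values (vertical axis) of the 6 genes of the H/ACA core and its assembly, of the telomerase RNA Terc and of the 3′ end trimming genes Parn and Zcchc7; filled red points are DX2 spleens, open blue points control spleens, and lines give group means (n = 3 each). Dkc1, Nhp2, Gar1 and Terc are higher in all DX2 spleens, and Parn and Zcchc7 lower in all of them.

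Terc, the RNA of telomerase, ends in an H/ACA domain and binds the same proteins. It read 7.55, 7.97 and 7.78 in DX2, against 7.09, 7.43 and 7.32 in control, and was higher in all 3 DX2 spleens at 0.48 (SE 0.15, adjusted p = 0.188, limma). It is named apart from the 31 because its symbol falls outside the rule. Of 15 genes of Cajal bodies, telomerase and small RNA transport 12 were higher and none passed. Ncbp2, a subunit of the nuclear cap-binding complex, differed by 0.36 (SE 0.11), and the snoRNP assembly helicase genes Ruvbl1 and Ruvbl2 by 0.29 each (SE 0.16 and 0.14). Coil, the scaffold of Cajal bodies, and Wrap53, which carries H/ACA RNAs to them, differed by 0.05 each (SE 0.12 and 0.10).

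Genes for trimming and decay of RNA 3′ ends were split. Of 11 measured, 8 were lower and 3 higher in DX2, with a median of -0.11. Of the 11, 1 was called lower, where 0.28% of all genes were. Zcchc7, the zinc knuckle protein of the complex that tags nuclear RNA for the exosome, read 7.60, 7.63 and 7.43 in DX2, against 8.48, 8.35 and 8.53 in control. It fell by 0.90 on the log2 scale (SE 0.11, adjusted p = 0.0387, limma). The count of called genes in the list was 1 without DX2 2, where 370 of all 22180 genes were called. That count was 0 without each of the 5 other arrays, where 1 to 8 of all genes were called. Parn, the ribonuclease that trims the 3′ ends of H/ACA RNAs and of Terc, read 7.73, 7.76 and 7.76 in DX2, against 8.04, 8.19 and 8.09 in control, at -0.36 (SE 0.10, adjusted p = 0.153, limma). The nucleases Xrn2 and Exosc10 differed by -0.37 (SE 0.13) and -0.27 (SE 0.11), and Rbm7, of a nuclear exosome targeting complex, by 0.43 (SE 0.14). The B cell values given above moved with these differences, and their part in them was not tested.

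A further 13 probe sets name such an RNA together with another gene and were left out by the rule. Their differences ran from -1.05 to 0.45, and in 3 of them every DX2 value lay below every control value, as in 11.2% of all genes. Since no gene can be assigned to them, they are counted and not named.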

How the data were processed

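Total RNA from 6 spleens was extracted with Trizol and biotin-labelled (IVT express kit of Affymetrix), per the labels' protocols. The authors deposited log2 values, made with RMA per the submitters' processing notes. The RMA software, not given in the sources used here, is unknown, as is the build, and the log2 scale was inferred from the values. RMA compresses large differences, and arrays carry no depth, so their number limits the precision.

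Of 41345 probe sets, 23521 had 1 symbol in the platform annotation, 1814 several and 16010 none. Each of 22180 genes took its probe set of highest mean, and 3 of the 31 RNAs had 2. Groups came from the titles. With limma 3.58.1 (R 4.3.3) a model without covariate or filter was fitted to all genes by lmFit and eBayes. Each difference is DX2 minus control, and p-values were adjusted over all genes at a threshold of 0.05. The fit was tested on simulated data. Pairs were tested by exact two-sided permutation. The planned strand match for hosts was not possible with the gene table used here, so span alone was used.

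The RNAs, lists, markers and alternatives were chosen with earlier results of these data known. Text names every RNA, with full values for those that passed, that did not overlap (10 per direction at most) or that had extreme signal, the hosts of those, all core and assembly genes, and up to 4 genes of smallest p of other lists. Coil, Wrap53 and Exosc10 fall outside this rule and were chosen after their values were seen. For the sex term, sex was taken from Xist and Y-linked transcripts. The host of 1 RNA is not reported here.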

Additional observations from a re-analysis of the deposited data

How the results depend on the processing

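The 18 alternatives were the replicate block, each array left out, a filter on dim genes, a prior with a trend or a robust one, weighted arrays, renewed quantile normalization, both centrings, mean or every probe set, a sex term and a threshold of 0.1. The count of called RNAs, 1 as reported, was 0 with the replicate block, with centring on all probe sets and with the sex term. It was 2 with the filter and with array weights, 3 at the threshold of 0.1, and 0 to 2 with 1 array left out. The count of called 3′ end genes was 0 with the replicate block, with centring on all probe sets and with the sex term, and 0 to 1 with 1 array left out. That of called C/D box RNAs, 1 as reported, was 0 with the replicate block, the filter, centring on all probe sets and the sex term. It was 4 with array weights, 3 at the threshold of 0.1 and 0 to 2 with 1 array left out. The counts of hosts, core proteins, Cajal body genes, synthases and Snhg genes were 0 throughout. The filter left out the 40% of genes of lowest signal. The called C/D box RNA, Snord85, at the percentile of 33.4, was among them and was not tested there. The cause of the other changes was not tested. Since the sex term sets the DX2 spleens against control 3 alone, no count with it measures the part of sex. The count of RNAs with all DX2 values below control, 9 as reported, was chosen after seeing the data. It was 6 with centring on all probe sets (6.24% of genes) and 4 with centring on probe sets without a symbol (3.26%, and 3 above, 32.5%). With the mean of a gene's probe sets the count was 8 (11.2%), and with 1 array left out it was 9 to 18 (14.8% to 18.1%). The median difference ran from -0.34 to -0.01. Among 14 named RNAs 11 kept their direction throughout. Snora33 turned to 0.10 and Snora34 to 0.15 with centring on probe sets without a symbol, Snora34 to 0.044 with centring on all, and Snora35 to -0.13 with array weights. With 1 array left out Snora34 ran from -0.14 to 0.022 and Snora35 from -0.15 to 0.22. Whether same-numbered spleens of the 2 groups were handled together is not known. Their deviations from the group means correlated over all genes at -0.32, -0.14 and 0.07, which cannot settle it. Among the 31 RNAs number 2 was the highest array of its group for 24 in DX2 and 21 in control. The array most often lowest was DX2 3, for 18, but control 1, for 24. In the block fit Snora44 differed by -1.45 with an adjusted p of 0.174 (limma). Dim values and 3 arrays per group limit what can be told apart. Over all genes, 70 were called as reported. That count was 1 with the replicate block, 2 with centring on all probe sets and 2 with the sex term, against 125 with the filter, 196 with centring on probe sets without a symbol, 547 with array weights and 394 at the threshold of 0.1, and it ran from 1 to 370 with 1 array left out.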

Other observations

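Enzymes that make pseudouridine without a guide RNA were split between higher and lower. Of 12 measured synthases 8 were lower and 4 higher in DX2, with none past limma's threshold. At an unadjusted p of 0.05, 1 was lower and 2 were higher, where 7.82% and 8.13% of all genes were. Pus3, which acts on transfer RNA, read 6.34, 6.60 and 6.35 (log2) in DX2 spleens, against 6.87, 6.84 and 6.95 in control spleens, at -0.46 (SE 0.12). Pus7 differed by 0.33 (SE 0.14) and Rpusd2 by 0.34 (SE 0.12), both with all DX2 values above control, and Trub1 by -0.24 (SE 0.11) with all below.

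Of 15 measured Snhg genes, the non-coding hosts of small nucleolar RNAs, 8 were lower and 7 higher in DX2, with a median of -0.02. Snhg20 read 6.50, 6.60 and 6.62 in DX2, against 7.07, 7.08 and 6.83 in control, at -0.42 (SE 0.11, adjusted p = 0.148, limma). Snhg3, whose span holds Snora73a and Snora73b, differed by 0.24 (SE 0.14).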
